A study of Homo sapiens with 4 samples.

Results

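Class II molecules present peptides only after a dedicated set of proteins has loaded them, and 10 genes of that set were followed here: the invariant chain CD74, the loading factors HLA-DMA, HLA-DMB, HLA-DOA and HLA-DOB, and the endosomal enzymes CTSS, CTSB, CTSL, IFI30 and LGMN. The members were all probe sets that the platform's annotation assigns to one of these symbols and to no other gene. That gave 22 probe sets for 9 genes, of 54613 probe sets and 19775 named genes on the array. IFI30, which encodes a lysosomal thiol reductase, had no probe set under its name in the annotation, so its level was not analysed here and only its promoter was read. Transcript levels came from 4 single-colour oligonucleotide arrays of KM-H2, an established human Hodgkin lymphoma line in which the class II transactivator gene CIITA is fused to the transcript BX648577. In 2 arrays the cells carried a non-silencing control. In the other 2 they had been transduced with the lentiviral vector pGIPZ-sh.FLJ27352, which expresses 1 hairpin against exon sequence of BX648577 (knockdown). All 4 arrays thus share the cell line and its fusion, the labels name 1 hairpin only, and they do not say whether replicates came from separate transductions, so p-values measure the spread between these arrays.

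The arms of the hairpin are shown because they define the treatment. They were found in the vector insert of 97 bases as its longest stretch with a reverse complement further on, and each is 23 bases long.
5′ arm: gacagccacctcactatcaaata
3′ arm: tatttgatagtgaggtggctgtc

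CD74 encodes the invariant chain, a trimeric chaperone that fills the groove of new class II dimers and steers them to endosomes. Legumain and cathepsins then trim it stepwise, cathepsin S making the last cut in B cells and dendritic cells, until the fragment CLIP remains. HLA-DM releases CLIP and edits the bound peptides, and HLA-DO, found mainly in B cells, thymic epithelium and some dendritic cells, binds HLA-DM and restrains it. CIITA acts at the promoters of the class II chains and also at those of CD74 and the HLA-DM and HLA-DO genes, through factors bound to the neighbouring X and Y boxes. The Y box is an inverted CCAAT sequence, ATTGG, bound by NF-Y.

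The promoters of the 5 genes that CIITA is known to act on are shown because the treatment was aimed at a CIITA fusion. Each is the stretch from 125 to 16 bases before the gene start in RefSeq (GRCh38.p14, minus strand of the chromosome, written 5′ to 3′ along the gene), and capitals mark CCAAT on either strand and TGATGATG. The positions are chr6:32953113-32953222 for HLA-DMA, chr6:32941044-32941153 for HLA-DMB, chr6:32817018-32817127 for HLA-DOB, chr6:33009607-33009716 for HLA-DOA and chr5:150412926-150413035 for CD74.
HLA-DMA: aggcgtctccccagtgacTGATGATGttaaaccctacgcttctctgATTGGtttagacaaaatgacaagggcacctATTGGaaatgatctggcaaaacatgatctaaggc
HLA-DMB: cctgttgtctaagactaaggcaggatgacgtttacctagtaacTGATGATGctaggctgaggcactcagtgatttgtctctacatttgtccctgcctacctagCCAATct
HLA-DOB: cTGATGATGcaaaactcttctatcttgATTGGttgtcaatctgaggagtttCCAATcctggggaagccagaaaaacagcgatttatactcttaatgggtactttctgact
HLA-DOA: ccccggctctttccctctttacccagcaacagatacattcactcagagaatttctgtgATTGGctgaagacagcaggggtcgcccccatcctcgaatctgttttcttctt
CD74: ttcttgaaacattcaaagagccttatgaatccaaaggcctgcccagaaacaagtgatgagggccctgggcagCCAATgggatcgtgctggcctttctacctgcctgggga

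RefSeq promoters of 300 bases were at hand for 7 of the 10 genes, all but CTSS, CTSB and LGMN. All 7 held CCAAT on either strand, against 34.6% of 35116 promoters of that length. ATTGG along the gene, the orientation of the Y box, was in HLA-DMA, HLA-DOA and HLA-DOB, against 20.3% of all promoters. CD74, HLA-DMB, CTSL and IFI30 held only the other orientation. The sequence TGATGATG, searched on both strands and chosen after these promoters had been read, was in 3 of the 7 (HLA-DMA, HLA-DMB and HLA-DOB) and in 0.94% of all promoters. In HLA-DMA and HLA-DOB it was followed by ATTGG after 20 and 18 bases. That order, with a gap of at most 40 bases, was in 6 of the 35116 promoters (0.0171%). Of 5 class II chain genes with a promoter at hand 1 had it, HLA-DRB1, with a gap of 19 bases. A match describes letters and shows no binding.

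Array means lay between 53.3 and 54.6 in linear intensity units and array medians between 8.12 and 9.28. The labelled identity was checked on markers. The CD30 gene TNFRSF8 read 110 to 134 and IRF4, a transcription factor of activated B cells, 223 to 253. The CD20 gene MS4A1 lay at 6.25 to 10.3. Not all listed markers of Hodgkin cells were high. Among them the chemokine gene CCL22 was at the floor of 1 on all 4 arrays and CCL17 read 12.4 to 18.0. The probe set of PIERCE2, the gene of FLJ27352 by general knowledge, read 880 and 947 in control and 621 and 590 in knockdown (66.3% of control). The brightest CIITA probe set read 59.6 and 65.1 in control and 60.7 and 53.6 in knockdown, and these groups overlap. Its dimmer probe sets 210925_at and 211884_s_at read 7.15 to 13.2 and 1.96 to 6.43, also with overlapping groups. A filter on dim probe sets, at a mean of 4.60 on the log2(intensity + 16) scale (an intensity of 8.26), left 27307 probe sets, among them 19 of the 22 followed here. The others were 2 probe sets of HLA-DOA and the only one of CTSL. Differences are knockdown minus control on that log2 scale, n = 2 arrays per group, and were tested with limma across all 27307 probe sets. The common-prior fit uses 1 prior variance, and the intensity-trend fit lets it follow the intensity. With 2 arrays against 2 an exact two-sided permutation test of a single probe set cannot go below p = 0.333, so none is given.

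**Figure D1:**
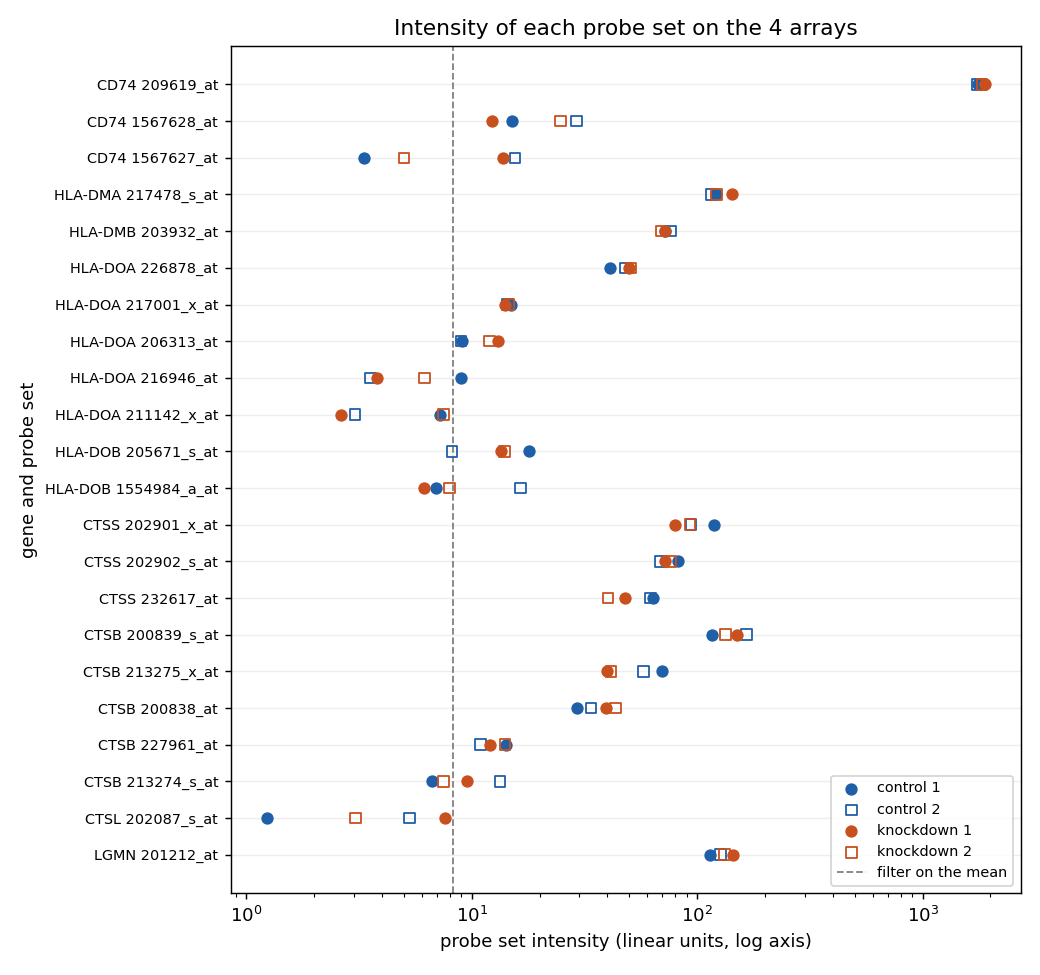
Intensity of the 22 probe sets (rows) on the 4 arrays, on a log axis in linear intensity units, with blue for control, orange for knockdown, filled circles for replicate 1 and open squares for replicate 2. The dashed line is the filter at an intensity of 8.26, and the bright CD74 probe set stands at 1741 to 1885 while the CTSL probe set lies left of the line on every array.

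In the knockdown cells no probe set of a loading or protease gene passed the common-prior fit. In the intensity-trend fit 1 cathepsin B probe set was lower. The loading genes stayed within 15% of control at their brightest probe sets, at 94.8% to 113%. The tested proteases lay between 80.9% (CTSS) and 115% (LGMN) at their brightest ones. Other probe sets above the filter ran from 60.2% (HLA-DOB 1554984_a_at) to 139% (HLA-DOA 206313_at), both of them dim. By limma's common-prior fit 0 of the 19 probe sets passed an adjusted p of 0.05, against 0.00732% of all probe sets tested. That fit called 2 of the 27307 probe sets, and PIERCE2 was not called (adjusted p = 0.273, against 0.000141 in limma's intensity-trend fit). Its 0 calls here therefore do not show that nothing changed. At an unadjusted p below 0.05 in the common-prior fit there were 3 of the 19, against 13.3%. By the intensity-trend fit 1 passed, the CTSB probe set 213275_x_at, and it was lower. The background of that fit is 2.16% of all probe sets, and 0.872% in the lower direction. The groups did not overlap at 10 of the 19, a share close to the 46.1% of all probe sets tested. Of these, 6 were higher and 4 lower in knockdown, against 23.3% and 22.8% of all probe sets. The median difference was 0.018 over the 19 and -0.0037 over all probe sets tested, and 10 of the 19 lay above 0.

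The invariant chain gene CD74 read 1767 and 1741 in control and 1885 and 1834 in knockdown at its probe set 209619_at. Both knockdown arrays were above both controls. The difference was 0.083 (SE 0.11, 95% interval -0.17 to 0.33), and limma gave adjusted p = 0.764 (common-prior fit) and 0.435 (intensity-trend fit). The knockdown mean was 1860 ± 36.0 (SD, n = 2) against 1754 ± 18.1, or 106% of control. The other CD74 probe sets, 1567628_at and 1567627_at, were dim and spread widely within each group. The first read 15.1 and 29.1 in control and 12.3 and 24.8 in knockdown. The second read 3.32 and 15.6 in control and 13.8 and 5.01 in knockdown, so neither resolves a change of the size seen at the bright one.

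HLA-DMA, the alpha chain of the peptide editor HLA-DM, read 121 and 115 in control and 142 and 122 in knockdown. The groups did not overlap, but the gap between knockdown replicate 2 and control replicate 1 was under 1 unit (122 against 121). The difference was 0.14 (SE 0.12, 95% interval -0.14 to 0.42, limma adjusted p = 0.642 in the common-prior fit). HLA-DMB, the beta chain of the same dimer, read 72.2 and 76.6 in control and 71.9 and 69.1 in knockdown. Here the knockdown arrays were below both controls, by a difference of -0.063 (SE 0.11, 95% interval -0.32 to 0.19, adjusted p = 0.834). The subunits of HLA-DM thus leaned to opposite sides by amounts smaller than their standard errors or close to them, and whether they differ from each other was not tested.

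HLA-DOA, the alpha chain of the HLA-DM inhibitor HLA-DO, had 5 probe sets. The brightest, 226878_at, read 41.0 and 48.1 in control and 49.6 and 50.9 in knockdown, with both knockdown arrays above the controls (difference 0.13, SE 0.11, adjusted p = 0.648 in limma's common-prior fit). At 206313_at the values were 9.08 and 8.97 in control and 13.1 and 12.0 in knockdown. This probe set was near the filter, and its difference was 0.19 (SE 0.11, 95% interval -0.061 to 0.44, adjusted p = 0.480). The probe set 217001_x_at read 14.0 to 14.9 on all 4 arrays, with overlapping groups and a difference of -0.016. The suffix _x_at marks a probe set in which some probes match other transcripts, so its level is uncertain. The remaining 2, 216946_at and 211142_x_at, lay below the filter at 2.63 to 9 with overlapping groups.

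HLA-DOB, the beta chain of HLA-DO, was dim at both of its probe sets. At 205671_s_at it read 17.9 and 8.18 in control and 13.5 and 14.0 in knockdown, so that the knockdown arrays lay between the controls. At 1554984_a_at it read 6.93 and 16.5 in control and 6.14 and 7.95 in knockdown. Here too the groups overlapped, and control replicate 1 was high at the first probe set and low at the second. The 95% intervals of the difference in the common-prior fit ran from -0.34 to 0.44 and from -0.65 to 0.16. The first interval includes differences of 0.39 and 0.43, the sizes given for HLA-DRA and HLA-DQB1 further on, but not 0.49, that of HLA-DRB1. The second interval includes none of these sizes.

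**Figure D2:**
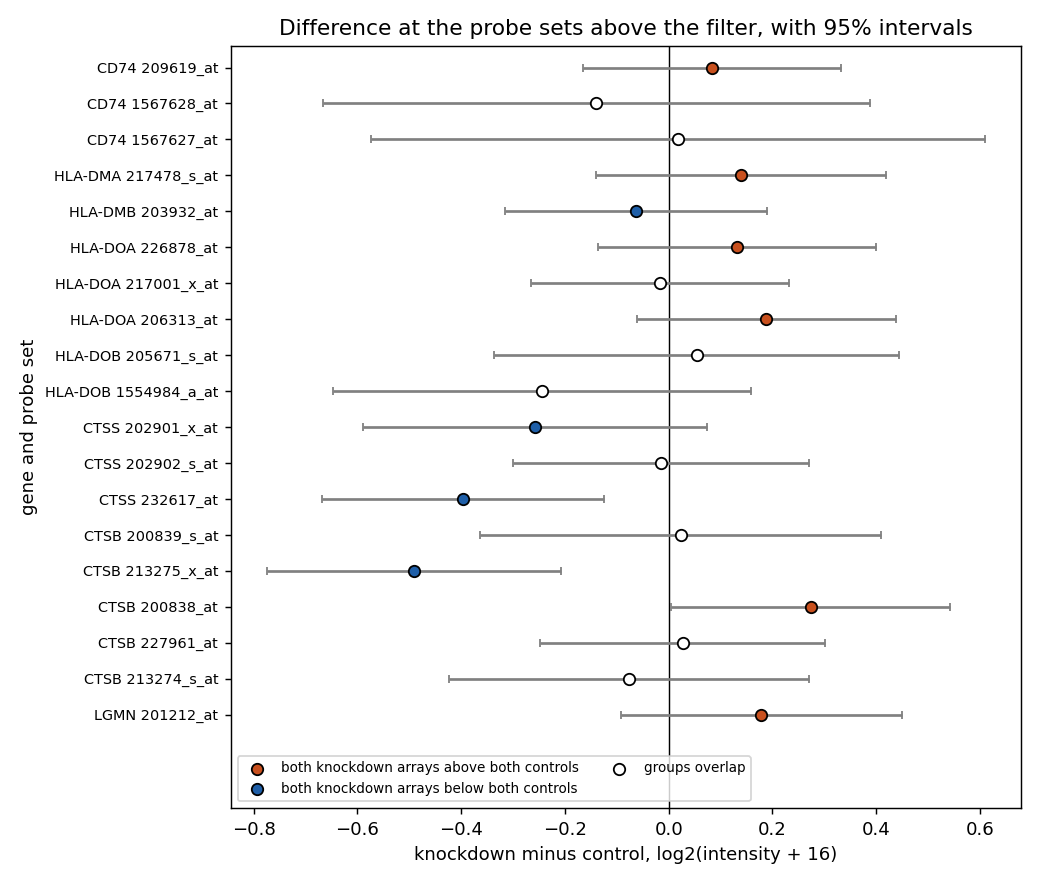
Difference between knockdown and control on the log2(intensity + 16) scale (horizontal axis) at the 19 probe sets above the filter, with 95% intervals from the common-prior fit. Orange points have both knockdown arrays above both controls, blue points below, and open points overlap. The intervals of CTSS 232617_at and CTSB 213275_x_at lie below 0 and that of CTSB 200838_at just above 0, and none of the 19 passed adjustment in this fit.

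Cathepsin S, the protease of the last invariant chain cut, had 3 probe sets well above the filter that did not give 1 answer. At 232617_at CTSS read 63.7 and 62.0 in control and 47.7 and 40.3 in knockdown. The controls were close to each other and both knockdown arrays were lower, at 70.0% of control. The difference was -0.40 (SE 0.12, 95% interval -0.67 to -0.13), and limma gave adjusted p = 0.290 (common-prior fit) and 0.0938 (intensity-trend fit). In the intensity-trend fit it passed with the replicate block (limma adjusted p = 0.0383) and among probe sets above the 75th percentile of means (0.0418). At 202901_x_at it read 119 and 93.7 in control and 79.4 and 92.9 in knockdown. The groups there were separated only by the step from 92.9 to 93.7 (difference -0.26, SE 0.14, adjusted p = 0.472 in the common-prior fit). At 202902_s_at it read 82.3 and 68.4 in control and 72.2 and 76.3 in knockdown, and the knockdown arrays lay between the controls (difference -0.015). Among genes above the filter, those closest to the brightest CTSS probe set in their course over the 4 arrays were AEN, EPPK1 and LOC101928844, with distances of 0.030, 0.031 and 0.035 between mean-centred log2 values. With 4 arrays such a likeness is a description only.

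Cathepsin B, a broad lysosomal protease, differed between its 5 probe sets. At 213275_x_at CTSB read 70.0 and 57.7 in control and 39.9 and 41.4 in knockdown. Both knockdown arrays were well below both controls, at 63.7% of control. The difference was -0.49 (SE 0.12, 95% interval -0.77 to -0.21), and limma gave adjusted p = 0.285 (common-prior fit) and 0.0433 (intensity-trend fit). That call was lost without control replicate 1 (adjusted p = 0.143), without knockdown replicate 1 (0.133), without knockdown replicate 2 (0.135), with median centring (0.0612) and with no filter (0.152). Its probes are of the type that can match other transcripts, and which they match was not tested.

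At 200838_at the same gene read 29.3 and 33.8 in control and 39.4 and 43.5 in knockdown. Both knockdown arrays were higher there, at 131% of control (difference 0.27, SE 0.11, 95% interval 0.0049 to 0.54, adjusted p = 0.370 in limma's common-prior fit and 0.301 in the intensity-trend fit). The brightest, 200839_s_at, read 116 and 165 in control and 150 and 133 in knockdown, so that the controls enclosed the knockdown arrays. The probe sets 227961_at and 213274_s_at were dim, at 10.9 to 14.1 and 6.66 to 13.4, with overlapping groups.

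Within each array the ratio of 200838_at to 213275_x_at was 0.418 and 0.586 in control and 0.987 and 1.05 in knockdown. These probe sets were picked for their opposite differences, so the ratio only restates them. The ratio of the brightest, 200839_s_at, to 200838_at was 3.97 and 4.89 in control and 3.80 and 3.07 in knockdown. Limma's diffSplice, which tests a probe set against the others of its gene and was added after the data were seen, gave 213275_x_at a difference of -0.55 from the other CTSB probe sets (unadjusted p = 0.00419, adjusted p = 0.272) and 200838_at one of 0.40 (adjusted p = 0.382). It called 3 of the 15491 probe sets it tested (0.0194%) and none of CTSB, CTSS, CD74, HLA-DOA or HLA-DOB.

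**Figure D3:**
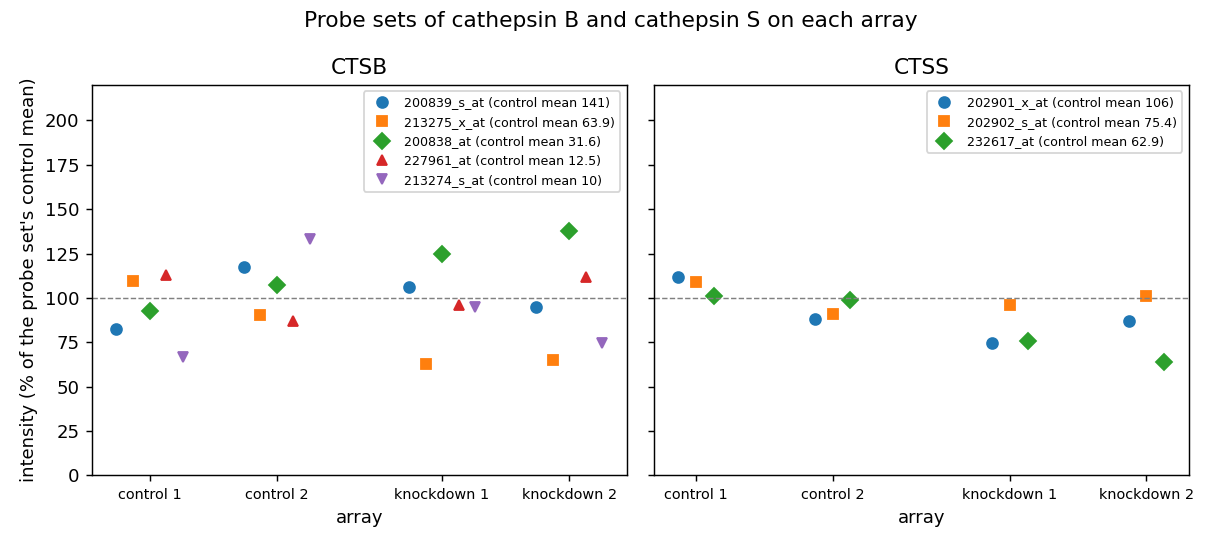
Intensity on each array as a percentage of the probe set's own control mean, for the 5 CTSB probe sets and the 3 CTSS probe sets, with 1 symbol per probe set. In CTSB, 213275_x_at stands at 63.7% and 200838_at at 131% on average in knockdown while the others straddle 100%, and in CTSS 232617_at stands at 70.0% and 202902_s_at at 98.5%.

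LGMN encodes legumain, the asparaginyl endopeptidase that starts invariant chain degradation in some cells and also activates other lysosomal proteases. Its single probe set read 114 and 127 in control and 144 and 132 in knockdown. Both knockdown arrays were above both controls, at 115% of control (138 ± 8.17 against 120 ± 9.30). The difference was 0.18 (SE 0.12, 95% interval -0.092 to 0.45, limma adjusted p = 0.532 in the common-prior fit and 0.380 in the intensity-trend fit). CTSL, a lysosomal cysteine protease, read 1.23 and 5.28 in control and 7.62 and 3.05 in knockdown. All 4 values were below the filter and the groups overlapped, so no difference of CTSL was tested. Whether this probe set detected CTSL was not tested either.

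The loading genes serve the classical class II chains. Of 11 listed chain genes 8 had a probe set and 7 were tested at their brightest one. All 7 lay above 0, with a median of 0.30 (0.13 with gene means over probe sets), and 3 rose in the intensity-trend fit, against 2.55% of the brightest probe sets of all named genes, 1.35% higher and 1.21% lower. HLA-DRB1 read 729 and 773 in control and 1033 and 1088 in knockdown, HLA-DRA 323 and 324 against 423 and 437, and HLA-DQB1 266 and 286 against 354 and 402. Other HLA-DQB1 probe sets above the filter gave 0.0055, 0.047 and 0.30, and these, like the HLA-DRB1 and HLA-DQB1 probe sets above, are of the type that can match related transcripts. These chains had differences of 0.49, 0.39 and 0.43 (limma adjusted p = 0.000431, 0.00791 and 0.00953 in the intensity-trend fit and 0.285 each in the common-prior fit). Of the other tested chains HLA-DQA1 gave 0.30, HLA-DRB4 0.17, HLA-DPA1 0.092 and HLA-DPB1 0.012, and none was called by either fit. The groups overlapped at HLA-DPA1 and HLA-DPB1, so the chains did not all rise. The 95% intervals of CD74, HLA-DMA and HLA-DMB reached 0.33, 0.42 and 0.19 in the common-prior fit. Their SEs were 0.11, 0.12 and 0.11 in that fit and 0.049, 0.098 and 0.11 in the intensity-trend fit. The difference between the chains and the loading genes was not tested, and the class II chains were chosen with their result known.

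Factors of the class II promoter complex had a median of 0.072 over 10 tested genes, and none passed either fit, with NF-Y subunit genes NFYC at 0.29 and NFYB at 0.17. Genes of class II traffic and turnover had a median of 0.037 over 11 tested, and none passed. The largest was AP3B1, a subunit of an endosomal adaptor complex, at 0.38 (39.9 and 45.1 in control, 63.0 and 57.4 in knockdown, limma adjusted p = 0.108 in the intensity-trend fit), followed by the tetraspanin CD82 at 0.25. Among partners of the invariant chain 4 of 6 were tested, with a median of -0.025, and 1 fell in the intensity-trend fit (1.21% of all named genes fell at their brightest probe set). That was ACKR3, an atypical receptor for the chemokine CXCL12 and for the CD74 ligand MIF. It read 219 and 272 in control and 182 and 183 in knockdown (difference -0.39, adjusted p = 0.0404 there and 0.311 in the common-prior fit), and a dimmer probe set gave -0.18.

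The other cathepsins had a median of 0.039, with 7 of 12 above the filter and 0 called by either limma fit. CTSC, which activates granule proteases, read 254 and 244 in control and 305 and 287 in knockdown (difference 0.23). CTSA, a carboxypeptidase, gave 0.27. CTSD, an aspartic protease named after its values were seen, leaned the other way, at 37.3 and 28.5 in control and 25.7 and 22.7 in knockdown (difference -0.28). None of these passed, with limma adjusted p-values of 0.133, 0.297 and 0.352 in the intensity-trend fit. Of protease inhibitors 5 of 9 were tested, with a median of 0.048 and 0 called by either fit. Cystatin genes CST3 and CSTB, which encode inhibitors of cathepsins, gave 0.13 and 0.067.

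Among 26 tested lysosomal enzymes and membrane proteins the median was 0.015, and in the intensity-trend fit 2 rose and 1 fell, against 1.35% higher and 1.21% lower of the brightest probe sets of all named genes. PPT1, a lysosomal thioesterase, read 450 and 422 in control and 586 and 565 in knockdown (difference 0.39, limma adjusted p = 0.00642). M6PR, a receptor that sorts enzymes to lysosomes, read 25.3 and 17.8 in control and 44.9 and 40.7 in knockdown (difference 0.65, adjusted p = 0.0224). ASAH1, acid ceramidase, read 197 and 188 against 160 and 116 (difference -0.45, adjusted p = 0.0451). Other ASAH1 probe sets above the filter gave -0.15, 0.042 and 0.039, and one below it gave -0.23.

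Subunits of the proton pump that acidifies endosomes had a median of 0.043 over 15 tested, and 2 rose in the intensity-trend fit, against 1.35% of the brightest probe sets of all named genes. ATP6AP1 read 127 and 129 in control and 196 and 170 in knockdown (difference 0.46, limma adjusted p = 0.0161), and ATP6V1D 151 and 171 against 218 and 209 (0.38, adjusted p = 0.0344). Another ATP6V1D probe set gave 0.23 and a dim one -0.32. Transcription factors of lysosomal genes had a median of -0.0060 over 7 tested with 0 called by either limma fit. TFEC read 103 on both control arrays and 76.9 and 80.0 in knockdown (-0.34), and MITF 53.2 and 56.7 against 76.1 and 69.2 (0.32).

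Genes of the interferon gamma response, a pathway that raises CTSS and the class II genes in many cells, had a median of 0.070 over 15 tested. One rose in the intensity-trend fit, against 1.35% of all named genes, the adhesion ligand ICAM1, at 320 and 350 in control and 490 and 450 in knockdown (0.47, limma adjusted p = 0.00360). None of the genes in these lists passed the common-prior fit, which called 0.0155% of the brightest probe sets of named genes.

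**Figure D4:**
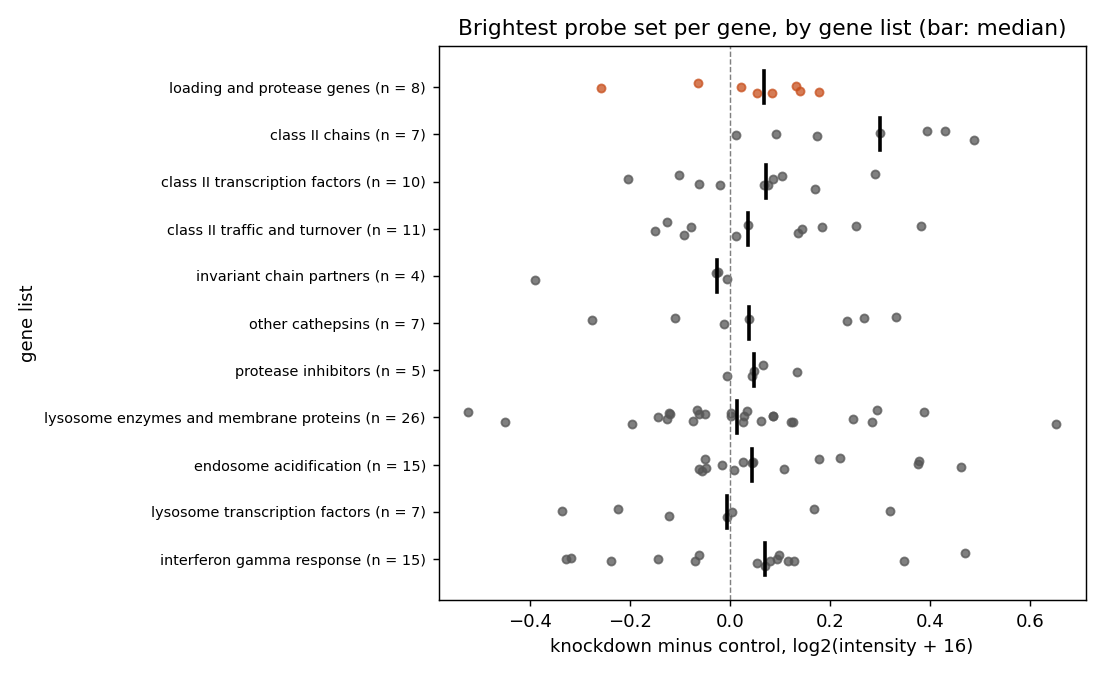
Difference between knockdown and control on the log2(intensity + 16) scale for the brightest probe set of each tested gene (points), by gene list without the cell type markers, with the median as a bar. The 8 loading and protease genes have a median of 0.069, the class II chains 0.30, and the other lists shown between -0.025 and 0.072.

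Markers of other antigen-presenting and immune cells were read beside these results, since CTSS, CTSB and HLA-DM are also expressed by myeloid and dendritic cells. Summed over 10 myeloid genes the intensity was 183 to 186 in control and 170 to 172 in knockdown, and 1 of the 4 tested lay above 0. CSF1R read 75.7 to 87.8, ITGAM 30.5 to 40.7 and CD14 19.3 to 27.0. VSIG4, MRC1 and FCN1 lay at 3.63 to 13.3, and LYZ, CD163, S100A8 and S100A9 at 1.00 to 8.58. Over 9 dendritic cell genes the sums were 103 to 105 and 106 to 109. FCER1A read 27.3 to 35.5 and CD1C 14.6 to 23.4. CLEC10A, XCR1 and LILRA4 were at 6.11 to 13.9, and CD207, CD1A, CLEC4C and FLT3 at 2.81 to 9.97. Over 11 genes of T and NK cells the sums were 260 to 264 and 302 to 342, most of it from CD3D, at 183 to 253, while CD3E, CD3G and CD2 lay at 1.00 to 14.0. Over 10 genes of germinal centre and plasma cells the sums were 524 to 542 and 505 to 599, mostly from CR2 at 345 to 435. Among Hodgkin cell markers 6 of the 9 tested lay above 0, with sums of 1466 to 1484 and 1327 to 1373, and FSCN1 and IL13RA1 fell in the intensity-trend fit (-0.32 and -0.50, limma adjusted p = 0.0170 and 0.0127). Their dimmer probe sets did not all go that way, with 0.35 at the other one of FSCN1 and 0.22, 0.15 and -0.19 at those of IL13RA1, none of them called. The part of these shifts in the results above was not tested. All 4 arrays are of the KM-H2 line, so the sums describe signal at these probe sets and not numbers of cells of other types.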

How the data were processed

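Deposited values were probe set intensities on a linear scale, 1 per probe set and array, with a floor near 1. Per the labels' protocols RNA was purified on Qiagen columns and labelled by the 1-cycle Affymetrix method, and the step from scanned probes to an intensity is not stated in them. Array means were nearly equal, and no source used here states a scaling. Gene names came from the annotation of the platform, where 41091 probe sets had 1 gene, 1801 several and 11721 none, and 0 symbols needed an update. Probe sets outside it are unnamed here.

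Values were turned into log2(intensity + 16), with no centring because array medians spanned 0.068 (limit 0.2). Both knockdown medians lay below both control medians. Limma 3.58.1 (R 4.3.3, lmFit and eBayes) compared the 2 knockdown with the 2 control arrays over all 27307 probe sets above the median of probe set means, two-sided, with Benjamini-Hochberg adjustment at 0.05. The scripts were tested on simulated data. The members, lists and tests were chosen with earlier results of these data known. Named genes are every probe set of the members, CIITA and PIERCE2, and, per list, up to 3 genes per direction past either fit or else the 2 with the largest moderated t, plus the 3 genes nearest to the member whose brightest probe set has the largest moderated t. Other genes, such as single cell markers, were chosen after their values were seen. Alternatives were other priors, filters, normalizations, pseudocounts, gene summaries and thresholds, a replicate block, and leaving out each array. Deviations of same-numbered arrays correlated at -0.014 across probe sets.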

Additional observations from a re-analysis of the deposited data

How the results depend on the processing

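The median over the loading and protease probe sets moved by less than the spread between replicates under every alternative run on it, between -0.031 (gene means over probe sets) and 0.075 (median centring). Their count past the threshold was 0 except for 1 probe set, CTSB 213275_x_at, in the intensity-trend fit and with a pseudocount of 64. Over all probe sets the count was 2, and 591 in the intensity-trend fit, 663 with a pseudocount of 64, 62 above the 75th percentile of means, 1 with gene means over probe sets, and 0 with no filter, with a pseudocount of 1 and at an adjusted p of 0.01 (limma). It ran from 0 (without control replicate 2 or knockdown replicate 2) to 4 (without knockdown replicate 1). With the replicate block the counts were 2 over all probe sets and 0 over the 19, as without it. In the intensity-trend fit, combined with the other alternatives after the data were seen, the block gave 1462 probe sets, and CTSS 232617_at passed with it (adjusted p = 0.0383) and above the 75th percentile of means (0.0418). Same-numbered arrays did not deviate together, so the numbers were not taken as pairs.

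Signs turned only at small differences or dim probe sets. In runs with an array left out the filter was set anew, and a probe set below it in a run has no value there. The turned signs and ranges that follow cover only the runs in which a probe set was above the filter. HLA-DOA 217001_x_at gave 0.026 with quantile normalization and 0.041 with median centring, and CTSS 202902_s_at 0.043 with median centring. With single arrays left out, -0.34 to 0.27 was the range of CD74 1567627_at, -0.41 to 0.13 was the range of CD74 1567628_at, -0.21 to 0.25 was the range of CTSB 200839_s_at, -0.054 to 0.11 was the range of CTSB 227961_at, -0.12 to 0.095 was the range of CTSS 202902_s_at and -0.19 to 0.30 was the range of HLA-DOB 205671_s_at. Without knockdown replicate 1 CTSB 200839_s_at gave -0.052 and CTSS 202902_s_at 0.018, and without knockdown replicate 2 CTSB 227961_at gave -0.023.

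List medians moved by more than the spread between replicates as follows. Array medians on the log2 scale were 4.65 and 4.66 in control and 4.61 and 4.59 in knockdown. Median centring therefore raised every difference by the same amount. The cause of the other moves was not tested. Median centring gave 0.094 for traffic and turnover, 0.072 for lysosomal proteins, 0.15 for dendritic markers, 0.045 for germinal centre markers, 0.096 for Hodgkin markers, -0.13 for myeloid markers and 0.11 for protease inhibitors. Gene means over probe sets gave 0.13 for class II chains, 0.069 for lysosomal proteins, 0.098 for Hodgkin markers and -0.14 for myeloid markers. No filter gave 0.0022 for dendritic markers, -0.071 for germinal centre markers and -0.11 for myeloid markers, and the 75th percentile -0.082 for myeloid markers. A pseudocount of 1 gave 0.14 for dendritic markers, -0.28 for myeloid markers and 0.34 for T and NK markers, and one of 64 gave 0.033 for dendritic markers and -0.076 for myeloid markers. With single arrays left out the medians ran from -0.0073 to 0.11 for traffic and turnover, -0.012 to 0.12 for class II transcription factors, -0.13 to 0.051 for invariant chain partners, -0.037 to 0.052 for lysosomal proteins, -0.095 to 0.00049 for lysosomal transcription factors, -0.026 to 0.068 for Hodgkin markers, -0.10 to 0.21 for T and NK markers, 0.024 to 0.049 for dendritic markers, -0.070 to 0.023 for germinal centre markers and -0.21 to -0.040 for myeloid markers. With 2 arrays per group and dim signals, CTSL, HLA-DOB and the dim CD74 probe sets could show only large changes.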
